A study of Homo sapiens with 6 samples.

Results

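Open chromatin between closely spaced genes was described in hTERT-RPE1 cells, a human retinal pigment epithelial line immortalised with telomerase. A close pair was 2 neighbouring protein-coding genes whose intervals in the RefSeq gene table of GRCh38.p14 (hg38) did not overlap and whose facing ends left a gap of 1 to 1000 bp free of any protein-coding gene. A shared region was made by joining overlapping ATAC-seq peaks of the R1 and R2 peak lists, with at least 1 peak of each. The regions described here, called gap regions, are the 1390 shared regions that overlapped such a gap, which is 1.16% of the 119583 shared regions on the autosomes. The rule used the presence of a region and the gene map, and no measured strength.

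ATAC-seq maps accessible DNA through the insertion of sequencing adapters by the transposase Tn5. The 6 libraries, all from wild-type cells of 1 line with no treatment in the labels, carry the set name R1 or R2 in their titles (3 libraries a set), and the labels do not state how the sets differ. Each set was deposited as 1 merged peak list, R1 with 143492 and R2 with 134940 peaks, so no spread between libraries could be computed and no test between conditions exists in what follows. Confidence intervals of shares are 95% Wilson intervals over pairs, gene ends or, for the share with both summits in the gap, regions. They cover counting error only, since neighbouring genes are not replicates of the cells. Both facing ends of a pair often lie under 1 region and are counted as separate, so intervals over such ends are too narrow. The fold enrichment of each peak over its local background is the authors' value, and it was used to describe and rank peaks within a list. From fold and p-value, the median peak of either list had a pileup of 72 at its summit. The pileup is counted here in fragments, though the sources used here do not state its unit.

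The label of the line was set against a list of markers of retinal pigment epithelium. A shared region lay within 1000 bp of an end of 6 of 10 such genes (60%), among them OTX2, MITF and PMEL, and of none of RPE65, LRAT, TTR and TYR. Of 8 blood, neuron and endothelial markers 3 had such a region (37.5%). Over all 19126 autosomal protein-coding genes the share was 75.1%, so neither list stood above the background of genes.

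Genes packed closely on a chromosome can face each other in 3 ways. In a head-to-head pair both starts face the gap, and a stretch of DNA that starts transcription in both directions is called a bidirectional promoter. Such promoters are known for high GC content, for lacking a TATA box and for serving broadly expressed genes of DNA replication, DNA repair and mitochondria. In a tandem pair the end of one gene faces the start of the next, and in a tail-to-tail pair both transcripts finish toward the gap, so neither gene starts there.

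The sequences below show what lies in and beside the gaps. Each is the RefSeq start window of 300 bases (250 before and 50 from the start on) of the gene named last in the label, from the RefSeq tables of GRCh38.p14, written 5′ to 3′ on that gene's strand, with the gap between both genes in capitals. The first is shown because it carried the strongest head-to-head region by rank of fold: EME1, at chr17:50372979-50373278 on the plus strand, encodes a subunit of a structure-specific DNA endonuclease, and its neighbour MRPL27 a protein of the mitochondrial ribosome. The others of the first set are textbook bidirectional promoters: MCM2, a subunit of the replicative helicase, beside TPRA1 (chr3:127598161-127598460, plus strand), HSPE1 beside HSPD1, the mitochondrial chaperonin and its cofactor (chr2:197500129-197500428, plus strand), and COL4A2 beside COL4A1, both chains of basement membrane collagen (chr13:110307034-110307333, plus strand).
MRPL27/EME1: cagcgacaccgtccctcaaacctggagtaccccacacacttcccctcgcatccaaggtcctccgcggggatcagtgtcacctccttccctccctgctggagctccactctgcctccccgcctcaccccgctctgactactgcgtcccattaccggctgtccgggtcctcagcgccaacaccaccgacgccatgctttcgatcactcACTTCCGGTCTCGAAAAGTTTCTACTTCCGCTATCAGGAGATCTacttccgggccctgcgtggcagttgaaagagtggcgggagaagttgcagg
TPRA1/MCM2: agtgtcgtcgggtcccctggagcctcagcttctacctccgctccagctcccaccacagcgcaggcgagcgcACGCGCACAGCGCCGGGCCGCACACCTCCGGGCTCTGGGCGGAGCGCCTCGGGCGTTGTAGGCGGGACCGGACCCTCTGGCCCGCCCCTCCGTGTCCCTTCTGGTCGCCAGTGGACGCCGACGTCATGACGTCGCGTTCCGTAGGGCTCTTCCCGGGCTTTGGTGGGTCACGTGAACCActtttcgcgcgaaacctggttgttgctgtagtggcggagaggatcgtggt
HSPD1/HSPE1: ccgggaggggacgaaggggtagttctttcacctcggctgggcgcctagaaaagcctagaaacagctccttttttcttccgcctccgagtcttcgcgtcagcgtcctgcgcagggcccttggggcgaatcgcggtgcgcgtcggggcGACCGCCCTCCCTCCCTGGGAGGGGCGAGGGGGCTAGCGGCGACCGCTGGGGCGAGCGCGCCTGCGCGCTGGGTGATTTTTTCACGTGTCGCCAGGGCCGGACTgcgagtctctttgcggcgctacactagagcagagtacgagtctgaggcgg
COL4A1/COL4A2: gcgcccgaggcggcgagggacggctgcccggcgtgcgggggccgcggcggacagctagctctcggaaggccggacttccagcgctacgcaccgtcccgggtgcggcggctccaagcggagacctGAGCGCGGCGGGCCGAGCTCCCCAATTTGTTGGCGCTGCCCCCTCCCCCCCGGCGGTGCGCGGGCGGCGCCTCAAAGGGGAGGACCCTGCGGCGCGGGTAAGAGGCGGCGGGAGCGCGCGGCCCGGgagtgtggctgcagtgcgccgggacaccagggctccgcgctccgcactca

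The next windows show a histone pair (H2AC8 beside H2BC8, chr6:26216671-26216970, plus strand), a pair of zinc finger genes (ZNF567 beside ZNF461, chr19:36666684-36666983, plus strand) and a tandem pair, in which the start of TIMELESS, a replication fork protection gene, lies just past the finish of MIP, a water channel of the eye lens (chr12:56449377-56449676, minus strand). All 3 gaps lay under a shared region.
H2BC8/H2AC8: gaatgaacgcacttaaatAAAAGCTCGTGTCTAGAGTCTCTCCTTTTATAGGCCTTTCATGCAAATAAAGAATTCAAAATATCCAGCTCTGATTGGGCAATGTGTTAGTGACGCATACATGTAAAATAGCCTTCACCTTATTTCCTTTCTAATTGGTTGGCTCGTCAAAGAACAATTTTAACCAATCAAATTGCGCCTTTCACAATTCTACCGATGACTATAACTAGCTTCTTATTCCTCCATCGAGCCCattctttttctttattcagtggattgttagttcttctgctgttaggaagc
ZNF461/ZNF567: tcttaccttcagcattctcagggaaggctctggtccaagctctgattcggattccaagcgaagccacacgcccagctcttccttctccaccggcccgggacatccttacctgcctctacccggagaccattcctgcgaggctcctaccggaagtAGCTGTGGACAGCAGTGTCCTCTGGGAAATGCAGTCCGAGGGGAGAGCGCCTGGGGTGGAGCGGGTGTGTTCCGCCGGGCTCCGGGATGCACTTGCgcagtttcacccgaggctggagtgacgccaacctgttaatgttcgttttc
MIP/TIMELESS: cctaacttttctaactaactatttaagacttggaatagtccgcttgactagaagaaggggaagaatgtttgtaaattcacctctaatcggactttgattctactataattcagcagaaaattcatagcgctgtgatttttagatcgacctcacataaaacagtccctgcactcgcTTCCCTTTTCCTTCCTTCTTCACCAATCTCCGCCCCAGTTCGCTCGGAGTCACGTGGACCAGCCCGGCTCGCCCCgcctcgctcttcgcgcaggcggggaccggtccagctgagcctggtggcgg

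A pair of head-to-head gaps without a shared region is shown for contrast: DUOXA2, a maturation factor of the NADPH oxidase DUOX2 beside it (chr15:45114076-45114375, plus strand; chosen after its values were seen), and the olfactory receptor gene OR2H1 beside OR11A1 (chr6:29456905-29457204, plus strand).
DUOX2/DUOXA2: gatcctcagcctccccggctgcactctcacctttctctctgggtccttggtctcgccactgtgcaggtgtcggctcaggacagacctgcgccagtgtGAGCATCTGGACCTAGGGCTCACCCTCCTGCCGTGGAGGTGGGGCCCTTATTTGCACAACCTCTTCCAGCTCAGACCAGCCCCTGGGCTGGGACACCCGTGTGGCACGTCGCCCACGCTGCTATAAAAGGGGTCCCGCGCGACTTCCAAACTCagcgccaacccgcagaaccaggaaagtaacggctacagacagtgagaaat
OR11A1/OR2H1: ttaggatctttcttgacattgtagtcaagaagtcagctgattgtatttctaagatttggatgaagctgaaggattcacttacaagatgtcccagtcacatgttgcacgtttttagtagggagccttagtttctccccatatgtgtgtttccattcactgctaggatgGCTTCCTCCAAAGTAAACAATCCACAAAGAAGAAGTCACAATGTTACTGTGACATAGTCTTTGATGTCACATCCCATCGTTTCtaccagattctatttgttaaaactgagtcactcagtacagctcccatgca

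The 9 windows differed in base composition. The gap was 80.2% G and C between COL4A1 and COL4A2, 74.0% between HSPD1 and HSPE1 and 71.5% between TPRA1 and MCM2. It was 38.4% between H2BC8 and H2AC8 and 39.8% between OR11A1 and OR2H1. The histone gap held 3 copies of the NF-Y letters CCAAT, counted on both strands, and 1 of the TATA letters TATAAA. The window of EME1 held 2 copies of the ETS letters CCGGAAG, 1 of them in the gap. The DUOX2/DUOXA2 gap held TATAAA and none of the other motifs searched, although 63.4% of its bases were G or C.

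The orientation of a pair went with whether its gap was open. A strand was given for 15101 of the 19126 genes (79.0%), and 2023 close pairs were found, which hold 3705 genes (19.4% of all). Of 749 head-to-head pairs, 721 had a shared region over the gap (96.3%, interval 94.7 to 97.4%). Of 377 tandem pairs 268 did (71.1%, 66.3 to 75.4%), and of 335 tail-to-tail pairs 45 did (13.4%, 10.2 to 17.5%). The 3 intervals did not overlap. Where a region had to cover the whole gap, the tandem share was 42.7% and the tail-to-tail share 5.97%, and with the stronger peaks of each list (fold at or above its median) the tail-to-tail share was 5.37%. Orientation could not be set for 562 pairs, which include all 62 pairs of chromosome 8, and 357 of these had a shared region (63.5%). Over all close pairs, 1391 had one (68.8%, 66.7 to 70.7%).

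Most gaps without a shared region had no peak at all. Of the 632 such pairs 10 had a peak of R1 alone, 8 a peak of R2 alone and 614 no peak in either list. The match between gaps and regions was close to 1 to 1: 1387 regions lay over 1 gap and 3 over 2, while 1389 gaps held 1 region and 2 held 2. Of the 721 head-to-head gaps under a shared region 712 were overlapped by an R1 peak, and the rest by an R2 peak joined to an R1 peak beside the gap.

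The length of the gap made little difference to head-to-head pairs. Their share with a region was 93.8% at gaps of 1 to 100 bp, 97.0% at 101 to 250 bp, 97.1% at 251 to 500 bp and 98.1% at 501 to 1000 bp, with overlapping intervals. Tandem pairs had 48.1% at 1 to 100 bp, where 13 of 27 pairs had a region (interval 30.7 to 66.0%), and 71.4% to 73.6% in the 3 wider classes. Tail-to-tail pairs stayed between 4.48% and 17.6%. At the limit of the rule, 67 of 112 pairs with gaps of 901 to 1000 bp had a region (59.8%), with a median width of 1494 bp and median folds of 6.25 in R1 and 6.46 in R2. Just outside it, 39 of 74 pairs with gaps of 1001 to 1100 bp did (52.7%), with a median width of 1835 bp and folds of 6.46 and 6.27.

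**Figure D1:**
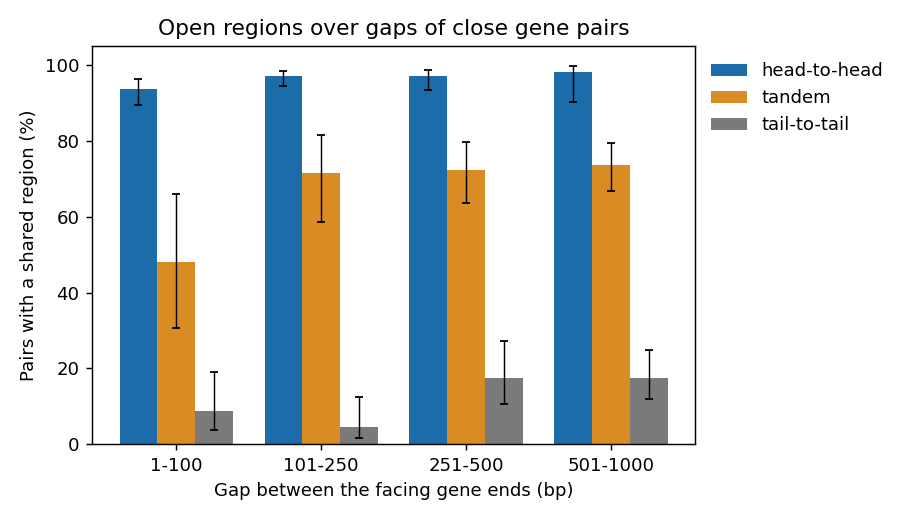
Share of close gene pairs with a shared region over the gap (%, vertical axis) by gap length (bp, horizontal axis) in head-to-head, tandem and tail-to-tail pairs, with 95% Wilson intervals as bars. Head-to-head pairs stand above 90% in every class of gap length and tail-to-tail pairs below 20%.

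The next question was which of the facing ends was open. In head-to-head pairs 1429 of 1498 starts lay under a shared region (95.4%, 94.2 to 96.3%). In tandem pairs 254 of 377 starts did (67.4%, 62.5 to 71.9%). Starts called lone lay inside no other protein-coding gene and had none within 1000 bp before them. They were covered in 6719 of 11190 cases (60.04%, 59.1 to 60.9%), and the share over all starts with a known strand was 64.3%. Head-to-head starts thus stood above both shares. The interval of tandem starts included the share over all starts, which itself counts the starts of close pairs. It lay above the interval of lone starts. In 707 of the 749 head-to-head pairs 1 region covered both starts. The cover of 1 start thus cannot be told apart from that of its neighbour, which a lone start does not have.

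Gene finishes were rarely covered. In tail-to-tail pairs 62 of 670 finishes lay under a shared region (9.25%, 7.29 to 11.7%), against 574 of 11358 lone finishes (5.05%, 4.67 to 5.47%) and 7.1% over all finishes. In tandem pairs 173 of 377 finishes were covered (45.9%). In 161 tandem pairs the same region covered the start and the finish, in 93 a region reached the start alone, in 12 the finish alone, and in 111 neither. Of the 173 covered tandem finishes, 161 thus lay under the region that covered the neighbour's start.

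**Figure D2:**
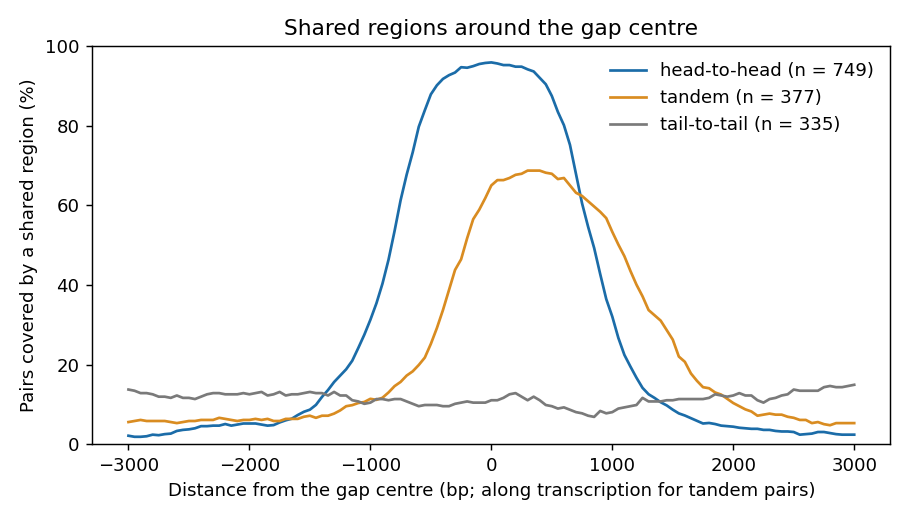
Share of pairs covered by a shared region (%, vertical axis) at each distance from the centre of the gap (bp, horizontal axis; tandem pairs run along transcription, other pairs along the chromosome), for 749 head-to-head, 377 tandem and 335 tail-to-tail pairs. Head-to-head pairs peak at 95.9% at the centre and tandem pairs at 68.7% at 300 bp downstream of it. Tail-to-tail pairs stay below 15% throughout, with 11.04% at the centre, 12.8% at 200 bp, 6.87% at 850 bp and 14.9% at 3000 bp.

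The profiles around the gap had 3 shapes. Head-to-head pairs were covered in 95.9% at the gap centre, in 87.9% and 87.4% at 500 bp to either side, and in 2.14% and 2.40% at 3000 bp to either side. Tandem pairs were covered in 25.2% at 500 bp upstream of the centre, 65.0% at the centre and 67.9% at 500 bp downstream, so the open stretch lay toward the downstream gene, whose start faces the gap. Tail-to-tail pairs had 11.04% at the centre and 13.7% and 14.9% at 3000 bp to either side. Nearer the gap they had 9.55% at 400 bp to the left, 12.8% at 200 bp to the right and 6.87% at 850 bp to the right.

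A single region usually spanned both starts of a head-to-head pair. It did in 93.2% of the pairs with gaps of 1 to 100 bp, 96.7% at 101 to 250 bp, 93.5% at 251 to 500 bp and 87.0% at 501 to 1000 bp. For head-to-head neighbours farther apart than the rule allows, 1 region over both starts was found in 16 of 45 pairs at 1001 to 2000 bp (35.6%) and in 0 of 129 pairs at 2001 to 5000 bp. Separate regions on each start were seen in no pair up to 500 bp, in 1 of 54 pairs at 501 to 1000 bp, and in 22.2% at 1001 to 2000 bp, 34.9% at 2001 to 5000 bp and 42.8% beyond 5000 bp. Pairs with neither start covered made up 6.25% at 1 to 100 bp and 1.85% at 501 to 1000 bp, against 13.3% to 25.6% in the classes beyond 1000 bp.

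**Figure D3:**
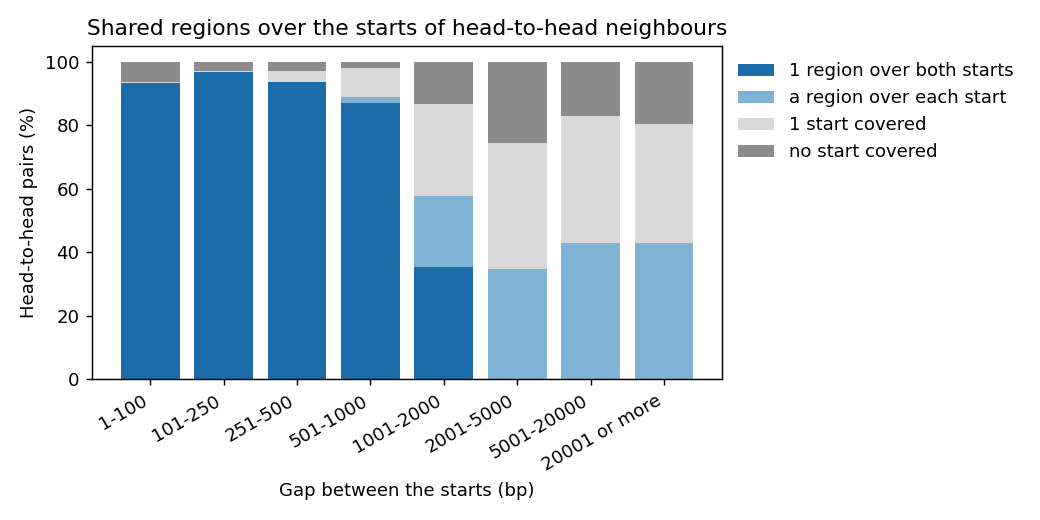
Head-to-head neighbours by the distance between their starts (bp, horizontal axis), split by how shared regions cover the starts (% of pairs, vertical axis). One region covers both starts in at least 87.0% of pairs up to 1000 bp and in none from 2001 bp on, where a region on each start takes 34.9% to 42.8%.

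Gap regions were wide and deeply covered. Their median width was 1658 bp (quartiles 1359 and 2001), against 1561 bp in 6692 other regions over a lone start, 1343 bp in 14449 other regions within 1000 bp of a gene end, and 829 bp in all other shared regions. A wider region is more likely to overlap a gap, so the rule itself favours width. The median number of fragments over the summit, recovered from the fold and p-value, was 356 in R1 and 363 in R2 for gap regions, 306 and 318 for regions over a lone start and 85 and 80 for all others. The local background moved with it: its median was 44.9 and 45.7 fragments in gap regions, 36.7 and 37.96 at lone starts and 12.5 and 12.1 elsewhere.

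By fold, gap regions did not exceed regions over lone starts. The median fold was 7.47 in each list for gap regions, 7.55 in R1 and 7.67 in R2 for regions over a lone start, and 5.71 in R1 and 5.48 in R2 for all others. Of the gap regions 10.8% lay above the 90th percentile of fold in both lists, against 14.8% of the regions over a lone start and 9.08% of all shared regions. The share among gap regions was thus near the background. In 1269 gap regions (91.3%) exactly 1 peak of each list was joined, compared with 88.0% of the regions over a lone start, 90.9% of the other regions within 1000 bp of a gene end and 97.5% of all other shared regions.

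The medians of gap regions differed by orientation, while their values overlapped. Folds in R1 ran from 2.46 to 15.42 in head-to-head, 1.85 to 13.34 in tandem and 1.75 to 14.07 in tail-to-tail regions. Head-to-head regions had a median width of 1720 bp, tandem regions 1566 bp and tail-to-tail regions 1019 bp. The median fold in R1 was 8.06, 6.85 and 4.60 in that order, and in R2 it was 7.97, 7.10 and 3.91. The median pileup in R1 was 388, 302 and 112 fragments, and in R2 it was 390, 320 and 98. The share above the 90th percentile in both lists was 13.5%, 7.49% and 6.67% (the last 3 of 45 regions), beside the 9.08% of all shared regions. As head-to-head gaps widened, the median width grew through 1593.5, 1700 and 1785 to 1888 bp and the median fold in R1 fell through 8.73, 8.12 and 7.62 to 7.28.

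The summit, the position of the highest pileup as deposited, seldom lay in a short gap. A longer gap takes in more of a region, and the share expected from length alone was not computed. Both summits lay in the gap in 2.78% of the head-to-head pairs at 1 to 100 bp, 8.05% at 101 to 250 bp, 40.0% at 251 to 500 bp and 60.4% at 501 to 1000 bp. Over all head-to-head pairs the R1 summit was in the gap in 26.4%, in the left gene in 38.8% and in the right gene in 34.8%, and the R2 summit in 20.2%, 40.6% and 39.1%. The summit lay a median of 104 bp from the nearer start in R1 and 119 bp in R2. The R1 and R2 summits of a head-to-head pair were a median of 37 bp apart, as in all shared regions.

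In tandem pairs the summit followed the downstream start. It lay in the downstream gene in 51.9% of pairs in R1 and 60.8% in R2, in the gap in 37.3% and 29.5%, and in the upstream gene in 10.8% and 9.70%. Its median position was 17 bp past the downstream start in R1 and 63 bp past it in R2, with quartiles of -208 and 167 bp in R1 and -198 and 174.5 bp in R2, where negative positions lie before the start.

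**Figure D4:**
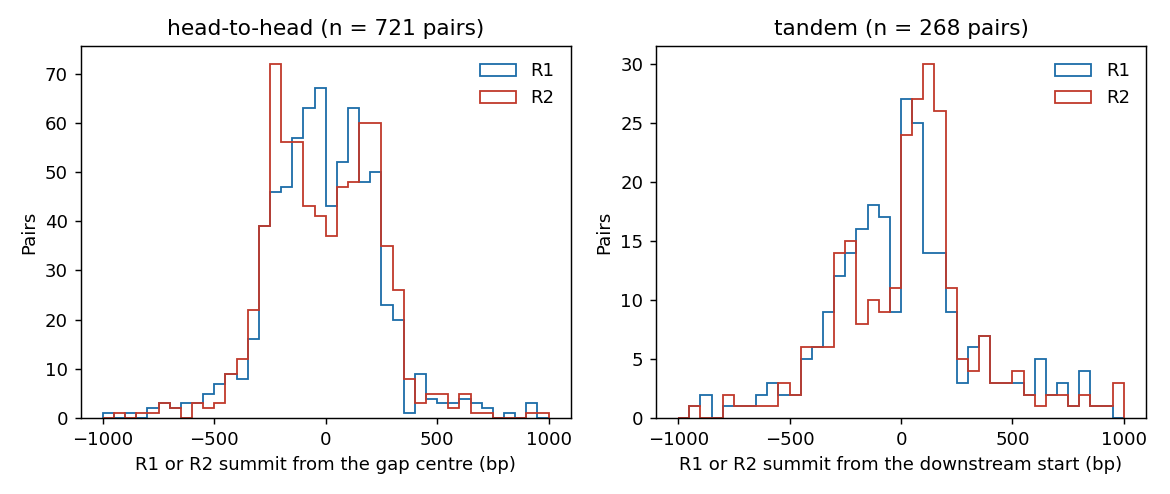
Number of pairs (vertical axis) by the position of the R1 and R2 peak summits in 50 bp bins (horizontal axis, bp), measured from the gap centre in 721 head-to-head pairs and along transcription from the downstream start in 268 tandem pairs; summits over 1000 bp away are not drawn. Head-to-head summits fall on both sides of the centre, a median of 155 bp away in R1 and 188 bp in R2, and tandem summits gather near the downstream start.

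The strongest head-to-head regions lay over short gaps. The MRPL27/EME1 region, chr17:50372430-50373612, spanned a gap of 44 bp with a fold of 15.42 in the R1 list and 15.18 in the R2 list, and 465 and 450 fragments over the summit. SRGAP3/THUMPD3, a GTPase-activating protein gene and a tRNA methyltransferase gene 26 bp apart, had folds of 14.46 and 13.79. Folds of 13.56 and 13.61 were found at PUS3/DDX25, which encode a pseudouridine synthase and an RNA helicase of the testis, 121 bp apart. CYP39A1/SLC25A27, an oxysterol hydroxylase and a mitochondrial carrier, had 13.48 and 13.69 over 156 bp, and HOMER2/RAMAC 13.61 and 13.39 over 52 bp. All 5 gaps were shorter than the median head-to-head gap of 169 bp.

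The head-to-head region with the lowest mean rank lay at THPO/CHRD, which encode thrombopoietin and the BMP antagonist chordin. Its folds were 2.82 and 2.58, with 44 and 43 fragments, and it overlapped only an edge of the 365 bp gap, with the R2 peak alone. At the shortest gaps, GLIS3/SLC1A1 (2 bp), with no R1 peak over the gap itself, had folds of 10.02 and 9.40 for its joined peaks and BBIP1/SHOC2 (3 bp) 6.69 and 6.37. At the longest, SMIM7/TMEM38A (994 bp) was spanned by a region of 2070 bp with folds of 9.82 and 9.55.

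Of 35 pairs listed as textbook bidirectional pairs, 23 met the gap rule and all 23 had a shared region, beside 96.3% of all head-to-head pairs, from which so few pairs cannot be set apart. Of the 23 pairs 20 were head-to-head by the strands given and 3 had no orientation. TPRA1/MCM2 had folds of 9.93 and 9.25 over a gap of 179 bp and HSPD1/HSPE1 7.27 and 6.09 over 104 bp. GART/SON, a purine synthesis enzyme and a splicing cofactor, had 6.50 and 6.22. HARS1/HARS2, the cytosolic and mitochondrial histidyl-tRNA synthetases, had 9.65 and 9.38, with summits at -5.5 and -3.5 bp from the gap centre, the minus sign marking the side of HARS1. TMEM258/FEN1, the second a flap endonuclease of replication, had 7.15 and 6.58, and SUGP1/MAU2, the second a cohesin loader, 11.36 and 10.30.

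The collagen IV pairs COL4A1/COL4A2 and COL4A4/COL4A3, both head-to-head, differed in the shape of their regions. The COL4A1/COL4A2 region was 3073 bp wide with folds of 4.05 and 3.93, and its summits lay 1304.5 bp (R1) and 524.5 bp (R2) from the gap centre, inside COL4A2. No R1 peak overlapped this gap, so its R1 values are those of a peak beside it that was joined to the R2 peak over it. The COL4A4/COL4A3 region was 1938 bp wide with folds of 9.87 and 8.45 and summits at -166 and -138 bp from the centre, inside COL4A4. The numbers of fragments over the summit were close, 225 and 245 at COL4A1/COL4A2 and 227 and 228 at COL4A4/COL4A3. The local background was 54.8 and 61.6 at COL4A1/COL4A2 and 22.1 and 26.1 at COL4A4/COL4A3.

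Tandem regions sat on the start of the downstream gene. SPTBN4/SHKBP1 had folds of 13.12 and 13.70, with summits 65 and 122 bp past the start of SHKBP1. At CFAP53/MBD1 the start belongs to CFAP53, a cilium gene, and both summits lay 46 bp past it, with folds of 13.34 and 13.23. DPP3/BBS1, the second a subunit of the BBSome of cilia, had 11.99 and 13.04 and summits 72 and 77 bp past the start of BBS1. The TIMELESS/MIP region had folds of 11.09 and 11.56 over a gap of 75 bp and summits 226 and 174 bp inside TIMELESS. The weakest, at CTXN1/TIMM44 and DND1/HARS1, had folds between 1.85 and 2.23, with summits between -125 and -421 bp from the downstream start, the minus sign marking positions before it.

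The 45 tail-to-tail regions were mixed. Of these, 5 held a start that the RefSeq table lists, such as the starts of H1-5 and H2AC16, short histone genes that lie within reach of their own finish. In 40 no listed start lay under the region, though the table does not hold every start. Of the head-to-head regions 719 of 721 held a listed start, as did 247 of 268 tandem regions. In both of these classes a start faces the gap by definition. The strongest tail-to-tail region, at TDRD12/SLC7A9 (the second an amino acid transporter of the kidney), had folds of 14.07 and 12.61, and both summits lay 861.5 bp from the gap centre, inside SLC7A9. FXYD3/LGI4 had 11.48 and 11.15 and RPL7L1/PEX39, whose region held the listed start of PEX39, 11.40 and 11.57. The weakest, at RNF167/PFN1, a ubiquitin ligase and the actin-binding profilin, had 1.75 and 1.59.

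The widest gap regions were not strong by fold. The TNFRSF12A/HCFC1R1 region was 4315 bp wide with folds of 2.72 and 2.73 and 559 and 540 fragments over the summit. Its local background was 204.7 and 196.9 fragments. AXL/HNRNPUL1, a receptor tyrosine kinase gene and one for a nuclear ribonucleoprotein, had 4157 bp with folds of 3.64 and 3.40. A region 4078 bp wide covered both the head-to-head gap H2BC21/H2AC20 and the tail-to-tail gap H2AC20/H2AC21, with folds of 3.59 and 3.39.

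Gene groups were counted by pairs with at least 1 listed gene, and most lists had their head-to-head gaps open. DNA repair genes had a region over 20 of 20 head-to-head gaps, DNA replication genes over 9 of 9, genes of the mitochondrial ribosome and tRNA synthetases over 23 of 23, respiratory chain genes over 17 of 17 and cytosolic ribosomal protein genes over 12 of 12. Proteasome genes had 6 of 6, cohesin and chromosome structure genes 5 of 5, spliceosome and RNA polymerase genes 17 of 18, cilium and centrosome genes 15 of 16 and ZNF genes 20 of 21. These counts lie beside 96.3% over all head-to-head pairs, so no list is set apart by them. In tail-to-tail pairs the counts were 0 of 5 for DNA repair, 0 of 7 for the mitochondrial ribosome and tRNA synthetases, 0 of 6 for ribosomal proteins and 0 of 5 for the proteasome, beside 13.4% over all, which so few pairs cannot be set apart from. A region lay over 2 of 2 tail-to-tail gaps of histone genes, 1 of 1 of cohesin and chromosome structure genes and 1 of 4 of spliceosome and RNA polymerase genes.

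The median fold varied between lists. It was taken over few pairs of mixed orientation and without a spread, so it sets no list apart. DNA repair pairs had 9.19 in R1 and 9.41 in R2, the mitochondrial ribosome and tRNA synthetases 8.96 and 9.06, the respiratory chain 9.07 and 8.85 and cytosolic ribosomal proteins 6.91 and 6.98, beside 7.47 over all gap regions in each list and 8.06 in R1 and 7.97 in R2 over head-to-head regions. DNA replication pairs had 7.65 and 7.20 and cohesin and chromosome structure pairs 7.16 and 6.58. Of the open pairs, 20 of 26 in the DNA repair list and 17 of 26 in the respiratory chain list were head-to-head. The mitochondrial ribosome and tRNA synthetases had 23 of 41 and cytosolic ribosomal proteins 12 of 20. DNA replication had 9 of 15 and cohesin and chromosome structure 5 of 7, beside 721 of 1391 over all open pairs. Whether fold went with orientation within the lists was not tested. XPC/LSM3, a damage recognition factor and an RNA-binding protein of splicing, had 10.27 and 10.09. ATP5F1A/HAUS1, the first a subunit of ATP synthase, had 12.60 and 12.87, and MITD1/MRPL30 13.65 and 12.89.

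Replication-dependent histone genes form pairs of their own. In 17 of 18 pairs with a histone gene both genes were histone genes, and 15 of the 17 had a region, beside 68.8% of all close pairs. Of the 10 head-to-head gaps 9 did, beside 96.3% of all. Their median fold was 4.91 in R1 and 4.61 in R2 and their median width 2256 bp, beside 7.47 in each list and 1658 bp over all gap regions. H2BC8/H2AC8 was the strongest by fold, with 8.91 and 8.18 over 232 bp. It had 459 and 417 fragments over the summit and a local background of 50.6 and 50.1. H2BC11/H2AC11 had 4.80 and 4.53 with a width of 2711 bp. Its 395 and 355 fragments stood over a local background of 81.6 and 77.6. The medians over all gap regions were 356 and 363 fragments and a background of 44.9 and 45.7. H3C7/H2BC9 had no peak over its gap of 978 bp. Copies of a histone gene are near-identical in their coding parts, and how reads with several matches were treated is not given in the sources used here, so their values are uncertain.

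Of other lists, 57 of 498 ZNF genes and 12 of 389 olfactory receptor genes were in close pairs, beside 19.4% of all genes. Of the genes of retinal pigment epithelium and pigment cells 5 of 33 were, too few to set apart. ZNF genes, mostly repressors with many fingers, had 31 of 44 gaps open (70.5%), near the 68.8% of all close pairs, with ZNF461/ZNF567 at folds of 13.17 and 12.63 and ZNF829/ZNF568 at 11.91 and 13.59. Olfactory receptor genes had a region over 0 of 7 gaps, of which 3 were tail-to-tail, 1 was head-to-head, 1 tandem and 2 without orientation. Keratin genes and blood cell genes formed no close pair. Of 6 pairs with a gene of retinal pigment epithelium and pigment cells 5 were open, too few to set apart from the 68.8% of all close pairs. RAB27A/PIGB, the first a transport factor of melanosomes, had folds of 12.62 and 12.05, and PMEL/CDK2, a melanosome fibril protein and a cell cycle kinase, 10.95 and 10.47, while the gap on the other side of PMEL, toward DGKA, had no region.

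Of the 749 head-to-head pairs 28 had no shared region over the gap. The nearest shared region lay within 1000 bp in 6 pairs, of which 4 were within 250 bp, and over 1000 bp away in 22, with a median distance of 4654 bp. Several hold genes known from other tissues: DUOX2/DUOXA2 and DUOXA1/DUOX1 of thyroid hormone synthesis, with the nearest region 974 and 2689 bp away, PLCZ1/CAPZA3 of sperm (9254 bp), SPRR2G/LELP1 of the skin (19339 bp) and OR11A1/OR2H1 (58878 bp). Others hold broadly expressed genes, such as AREL1/FCF1 (14848 bp), the second a ribosome assembly factor, and KDM5A/CCDC77 (30377 bp), the first a histone demethylase. Gene intervals here run to the outermost RefSeq end, so a start used inside the interval would be missed. At POLR2L/TSPAN4 a peak of R2 alone lay over the gap.

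Chromosomes differed in how many close pairs they hold. Chromosome 16 had 163 per 1000 genes, chromosome 19 145 and chromosome 17 138, while chromosome 21 had 50.2 and chromosome 4 62.3. The share of head-to-head gaps with a region was 100% on 8 of the 21 chromosomes with such pairs and lowest on chromosome 19, with 51 of 58 (87.9%). Genes of noncoding RNA or pseudogenes lay in the gap in 3.34% of head-to-head, 18.04% of tandem and 1.79% of tail-to-tail pairs.

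Base composition was compared over start windows whose start is the outermost end of the gene, 1369 of the 1498 head-to-head starts and 9804 lone starts. The 2 windows of a close head-to-head pair overlap, so they share bases. The median GC content was 65.0% at head-to-head starts, against 62.3% at lone starts and 62.7% at all 13150 starts. The median ratio of observed to expected CpG was 0.88 at head-to-head starts, 0.75 at lone starts and 0.77 at all starts. Lone starts under a shared region had 65.7% and 0.84.

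Head-to-head starts were covered more often at every GC content, counting regions that also covered the neighbour's start. Below 50% GC, 54 of 62 head-to-head starts were covered (87.1%, 76.6 to 93.3%), against 422 of 1924 lone starts (21.9%, 20.1 to 23.8%). From 50 to 60%, 266 of 280 head-to-head starts were covered, against 1260 of 2158 lone starts (58.4%), from 60 to 70% the shares were 96.8% and 77.9%, and at 70% or more they were 95.7% (93.2 to 97.4%) and 78.8% (77.2 to 80.3%). The intervals did not overlap in any class, but those of head-to-head starts count both starts of a pair as separate and so are too narrow.

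Motif letters were searched on both strands of the start windows. The SP/KLF letters GGGCGG were found in 73.0% of head-to-head windows, against 71.8% of the lone windows under a shared region and 58.9% of all windows. The NF-Y letters CCAAT were found in 43.4%, 37.4% and 36.8% in the same order. The ETS letters CCGGAAG were found in 29.7% of head-to-head windows, 17.6% of covered lone windows and 14.8% of all, the NRF1 letters GCATGCGC in 8.55%, 5.50% and 4.36%, and the YY1 letters AAGATGGCG in 5.62%, 3.88% and 2.92%. A match is a run of letters and not a site of binding. Most head-to-head windows hold 2 starts, and 1 match can count in both windows of a pair. The shares therefore do not compare single starts.

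The TATA, AP-1 and TEAD letters were in fewer head-to-head windows, and the E2F letters in more. The TATA letters TATAAA were found in 3.51% of head-to-head windows, against 6.23% of covered lone windows and 10.1% of all. The AP-1 letters TGANTCA were found in 3.07%, 4.77% and 5.73%, and the TEAD letters GGAATG in 8.04%, 10.6% and 11.6%. The E2F letters TTCCCGCC were found in 6.28%, 5.29% and 4.25%, and the CRE letters TGACGTCA in 3.58%, 3.67% and 2.77%. The SP/KLF and E2F letters can overlap, since GGGCGG and GGCGGGAA, the other strand of the E2F letters, share 5 bases.

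**Figure D5:**
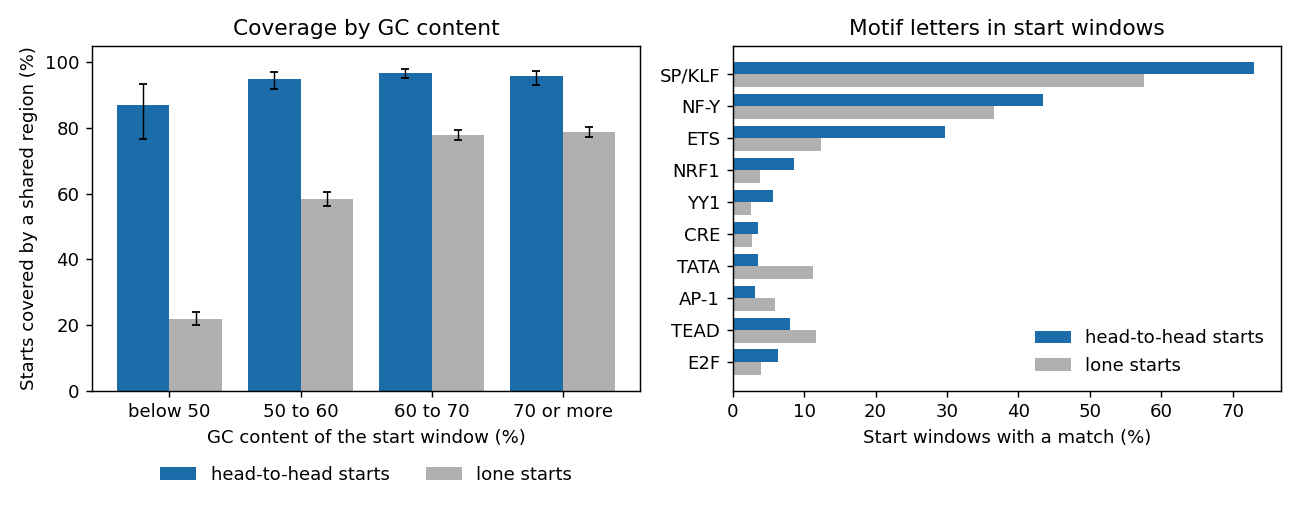
Left, share of starts under a shared region (%, vertical axis) by GC content of the 300 base start window (%, horizontal axis) at head-to-head starts and lone starts, with 95% Wilson intervals as bars. Right, share of start windows with a match to each set of motif letters (%, horizontal axis) at 1369 head-to-head and 9804 lone starts; ETS letters are in 29.7% and 12.4%, TATA letters in 3.51% and 11.2%.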

How the data were processed

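ATAC-seq peaks of 6 wild-type hTERT-RPE1 libraries were used as 2 lists, R1 and R2, each pooled by the authors over 3 libraries. Coordinates are on hg38, per the submitters' processing notes. The sources used here do not give the aligner, peak caller, settings or any Tn5 shift. Each peak has a deposited score (in nearly every row the floor of 10 times −log10 q), a fold enrichment (a ratio, the authors' own), a deposited −log10 p-value and the summit offset as deposited. Depth per library is unknown. The fragments over each summit were recovered from fold and p-value, with fold read as (pileup + 1) / (background + 1) and p as a Poisson tail. A whole number gave the deposited −log10 p within 0.001 for 99.998% (R1) and 99.995% (R2) of peaks, and no source states this relation, which rests on the values. The lowest background was 7.93 in R1 and 7.79 in R2.

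Peaks of both lists on the 22 autosomes were joined where they overlapped by at least 1 bp. Genes came from the RefSeq table of GRCh38.p14, strands and 300 base start windows from its promoter table, which matched 15101 of 19126 genes. Gaps were stretches of 1 to 1000 bp between merged protein-coding gene intervals. Percentiles of fold were taken within each list. Because lists are pooled, no test was run. The members, the 16 gene lists and the known pairs were chosen with earlier results of these data known. Named pairs are the strongest and weakest by mean fold percentile in each orientation, the widest, those over most gaps, the shortest and longest gaps, the best of each gene list, the first in alphabetical order without a region, and the known pairs; not all are printed. Coverage of starts and finishes, wider head-to-head gaps, profiles, GC classes, listed starts, the pairs just around the limit of 1000 bp and the printed windows were added after values by orientation had been seen. In simulated data the joining and gap steps made 0 errors on 1232 items, and the pileup step recovered 100% of 20000 peaks. Those peaks were built with the formula that the step inverts. Their recovery thus checks the calculation and not whether the deposited values follow it. The software was matplotlib 3.10.9, scipy 1.17.1, pandas 2.3.3 and numpy 2.4.6 under Python 3.11.15. Alternatives concerned q-values, stronger peaks, the overlap that counts as shared, gap length, full cover of the gap, chromosome X, each list alone, and 2 chosen after seeing the data: pairs of consecutive genes also where another gene spans the gap, and pileup ranked in place of fold.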

Additional observations from a re-analysis of the deposited data

Results flagged for a closer look

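Chromosome X lay outside the autosomes described above. It held 54 close pairs, of which 31 had a shared region over the gap (57.4%), and 32 shared regions overlapped these gaps.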

How the results depend on the processing

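The 8 summary results were computed under 11 alternatives, and the median fold percentile under 1 more, which gave 89 values. Of these 64 stayed within the interval of the value reported, or within 1.5 times for the count of regions, and 25 did not. The order of head-to-head above tandem above tail-to-tail pairs held under all 11. The share of all close pairs with a region, 68.8% as reported, was 65.7% at a −log10 q of at least 10, 54.7% with the stronger part of each list (fold at or above its median), 72.4% for gaps up to 500 bp, 66.1% up to 2000 bp and 57.3% where the region had to cover the whole gap. The head-to-head share was 85.4% with the stronger peaks and 94.4% under full cover, and the tandem share 50.9% and 42.7%. The tail-to-tail share was 8.96% at the stricter q-value, 5.37% with the stronger peaks and 5.97% under full cover. The median width was 1597 bp for gaps up to 2000 bp, 1719 bp under full cover, 1530 bp with R1 alone and 1586.5 bp with R2 alone. The share of regions with both summits in the gap, 20.5% as reported, was 14.7% for gaps up to 500 bp and 27.3% up to 2000 bp; with 1 list, where a single summit counts, it was 31.5% in R1 and 24.2% in R2. The median fold percentile, 71.8 as reported, was 76.4 with the stronger peaks, 73.8 for gaps up to 500 bp, 69.4 up to 2000 bp, 73.5 under full cover and 95.7 with pileup ranked in place of fold. The cause of these shifts was not tested beyond what each alternative changes by construction.

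Leaving out each library could not be run, because the lists are pooled. No paired analysis was possible because no result comes from a test. The promoter table leaves 562 pairs without orientation, gene intervals miss starts inside them, and no sequence of tail-to-tail gaps was read. Pooled lists carry no spread between libraries, so intervals say nothing of how far another culture would differ.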
